A study of Mus musculus with 2 samples.

Results

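The collagen genes of newborn mouse forebrain were taken as all protein-coding genes of the deposited gene tables whose symbol has the form Col, number, a, number, such as Col1a1. The rule found 44 of the 43346 annotated genes. It uses no measured levels, though it was chosen with earlier results of these data known. The data are 2 libraries of total RNA depleted of ribosomal RNA, each sequenced as stranded paired ends with RNA spike-ins, from forebrain of strain B6NTac;B6NCrl/Lap at age 0 days after birth, with males and females pooled. The labels call the libraries biological replicates 1 and 2 from separate isolates. Replicate 1 pooled 15 mice, replicate 2 pooled a number of mice that the labels leave out, and both carry the same donor label. Both libraries belong to 1 group, so the design holds no comparison between conditions, and each ± below is an SD over n = 2 libraries. The comparisons are between collagen genes within the tissue and between these isolates.

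Collagens are secreted or membrane-anchored proteins in which chains wind into a triple helix, with glycine at regular spacing because no other residue fits inside the helix. Fibrillar collagens form the fibres of skin, bone, tendon and the meninges, network collagens of type IV build basement membranes around vessels and under the pial surface, and cartilage collagens form the finer fibrils of cartilage and of the vitreous. Beaded filament and FACIT collagens (fibril-associated collagens with interrupted helices) join these networks to cells and to each other, and transmembrane collagens span the membrane of the cell that makes them, neurons included. In brain, most collagen is made by fibroblasts of the meninges and by cells of vessels. The 44 genes were sorted into 7 classes: 8 fibrillar, 7 cartilage, 8 basement membrane, 4 transmembrane, 6 beaded filament, 6 FACIT outside cartilage and 5 others.

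The classes differ in the coding sequence itself, shown here for 4 abundant members because the pattern of glycine codons is what separates fibre-forming from network-forming and membrane-bound chains. Each stretch is 24 codons of the GENCODE M21 coding sequence on mm10, read 5′ to 3′ on the coding strand and numbered from the start codon. The longest complete coding sequence of each gene was used, which for Col25a1 is not that of its most abundant transcript. Capitals mark codons of the form GGN, which code for glycine, within a run of at least 5 such codons spaced 3 codons apart.
Col1a1, codons 675 to 698: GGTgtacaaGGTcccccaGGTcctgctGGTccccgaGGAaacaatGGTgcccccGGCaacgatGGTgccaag
Col3a1, codons 680 to 703: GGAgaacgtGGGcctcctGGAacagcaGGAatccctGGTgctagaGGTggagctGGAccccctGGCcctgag
Col4a1, codons 1047 to 1070: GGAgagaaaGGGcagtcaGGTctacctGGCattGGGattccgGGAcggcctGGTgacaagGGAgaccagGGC
Col25a1, codons 515 to 538: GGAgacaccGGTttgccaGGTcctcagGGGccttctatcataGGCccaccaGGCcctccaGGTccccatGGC
Both fibrillar stretches come from the middle of a long run and are unbroken. In Col4a1 the spacing breaks once, where the next glycine codon follows after 2 codons instead of 3. In Col25a1 it breaks once as well, with 5 codons from the last glycine codon of the run to the next.
The genes lie on chromosome 11, 94936224 to 94953042 (Col1a1, plus strand), chromosome 1, 45311538 to 45349706 (Col3a1, plus), chromosome 8, 11198423 to 11312826 (Col4a1, minus) and chromosome 3, 130131501 to 130599877 (Col25a1, plus) of mm10, and the printed stretches are exonic coding sequence.

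A complete coding sequence was found for all 44 genes. In the 8 fibrillar genes the longest run held 216 to 344 glycine triplets, with a median of 338, and these genes had only 2 to 3 runs. Col24a1 and Col27a1 made the lower end of that range at 216 and 217 triplets. The longest run of Col1a1 held 338 triplets, codons 168 to 1181 of 1453. The 8 basement membrane genes had shorter and more numerous runs, with a longest run of 30 to 66 triplets and 11 to 27 runs per gene. Col4a1, for example, had 22 runs of which the longest held 40 triplets. Transmembrane members had 5 to 15 runs, the longest holding 40 to 56 triplets. The cartilage class was mixed in this respect: Col2a1, Col11a1 and Col11a2 had runs of 338 to 339 triplets like the fibrillar genes, the 3 type IX genes had a longest run of 113, and Col10a1 had 61. The bar plot of longest runs shows this step between classes.

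**Figure D1:**
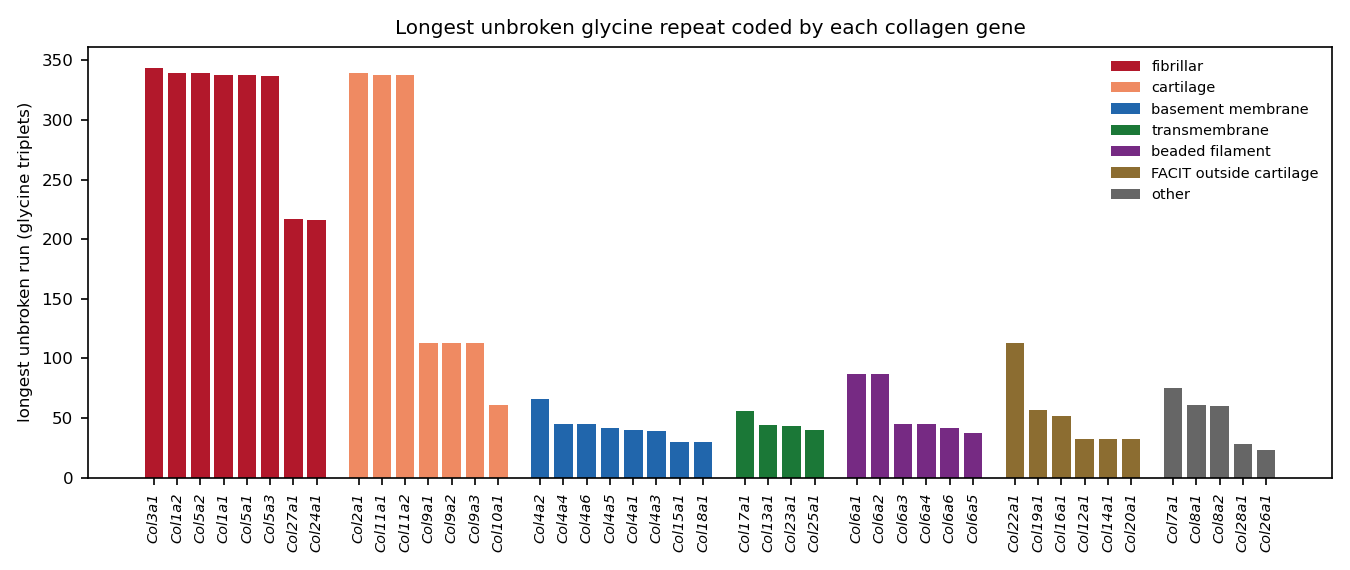
Longest unbroken run of glycine triplets (vertical axis, number of triplets) in the longest complete coding sequence of each of the 44 collagen genes (horizontal axis), coloured by class. The fibrillar genes and Col2a1, Col11a1 and Col11a2 stand at 216 to 344 triplets, while no basement membrane or transmembrane gene exceeds 66.

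Levels are given as coding TPM, that is TPM (a level per transcript length) rescaled so that protein-coding genes sum to 1000000 in each library. Of the 44 genes, 36 reached 1 coding TPM in both libraries, against a background of 63.3% of 21474 protein-coding genes. The 8 below that level in at least 1 library were Col10a1, Col17a1, Col20a1, Col4a3, Col4a4, Col6a4, Col6a6 and Col28a1. Counting transcripts of at least 1000 nt, 34 of the 44 genes reached that level in both libraries. The members together held 649 coding TPM in replicate 1 and 1350 in replicate 2, and the median member held 6.5 and 11.7. A few genes dominated: Col1a2, Col4a1 and Col3a1 made 32.4% of the collagen sum in replicate 1 and 40.2% in replicate 2, and the 10 highest members made 68.1 and 72.7%. The plot of levels by gene shows how far members of 1 class lie apart: within the basement membrane class, mean levels ran from 0.321 coding TPM for Col4a4 to 121 for Col4a1.

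**Figure D2:**
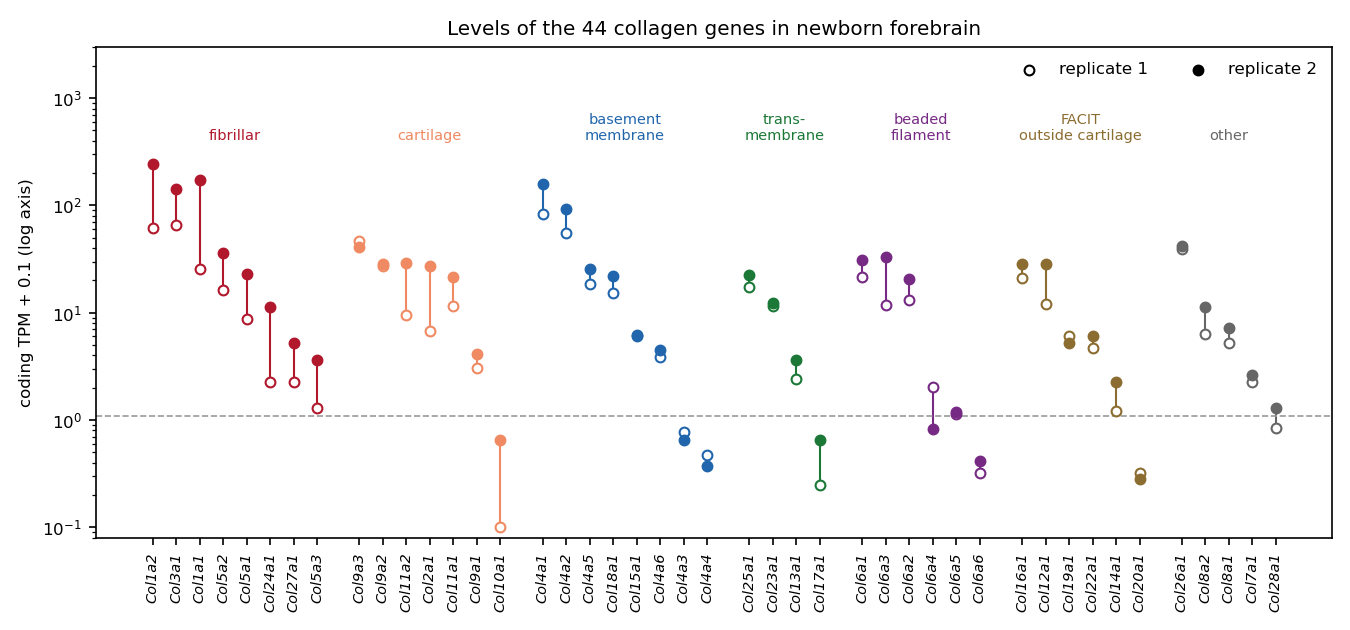
Level of each collagen gene as coding TPM + 0.1 on a log axis, by class; open circles are replicate 1, filled circles replicate 2, and the dashed line marks 1 coding TPM. All 8 fibrillar genes lie higher in replicate 2, while Col9a3, Col4a3, Col4a4, Col6a4, Col15a1, Col19a1 and Col20a1 lie lower there.

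Depth was similar in both libraries, at 62516003 and 65912060 expected counts (estimated reads per gene). Collagen genes took 67485 counts (0.11% of gene counts) in replicate 1 and 160788 (0.247%) in replicate 2. Markers of the labelled tissue were present, with all 5 telencephalic factors on the list and all 4 neuronal genes above 1 coding TPM in both libraries. The libraries differed in composition: protein-coding genes held 13.7% of deposited TPM in replicate 1 and 22.3% in replicate 2, and mean fragment lengths were 247.7 and 268.7 nt. The part of these differences in the results below was not tested, apart from the removal of a length and GC trend given with the library ratios.

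The share of each class in the collagen sum was not the same in the 2 isolates. Fibrillar genes held 183 coding TPM in replicate 1 and 635 in replicate 2, or 28.3 and 46.9% of the collagen sum (37.6 ± 13.2%). Basement membrane genes held 183 and 308 coding TPM, or 28.1 and 22.8% (25.5 ± 3.79%). In replicate 1 the sums of these classes were thus equal to 3 digits, and in replicate 2 the fibrillar sum was far the higher. Cartilage genes held 104 and 151 coding TPM, or 16.1 and 11.2% (13.6 ± 3.48%), and transmembrane genes 31 and 38.6 coding TPM, or 4.78 and 2.85% (3.81 ± 1.36%). The transmembrane class, with the fewest members, had the lowest sum of the 7 in both libraries. Its median member, at 6.9 and 7.83 coding TPM, was not the lowest. Medians were 5.24 and 5.52 for FACIT genes outside cartilage and 5.1 and 7.17 for the others. The fibrillar, cartilage and basement membrane medians were higher in both libraries. Beaded filament genes held 49.5 and 86.2 coding TPM, FACIT genes outside cartilage 44.9 and 70.5, and the others 53.2 and 64.1. Counting Col2a1, Col11a1 and Col11a2 as fibrillar, a class whose long glycine runs they share, lowers the mean cartilage share to 8.64%. The stacked bars of class sums show that the fibrillar part accounts for most of the difference in length between the bars.

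**Figure D3:**
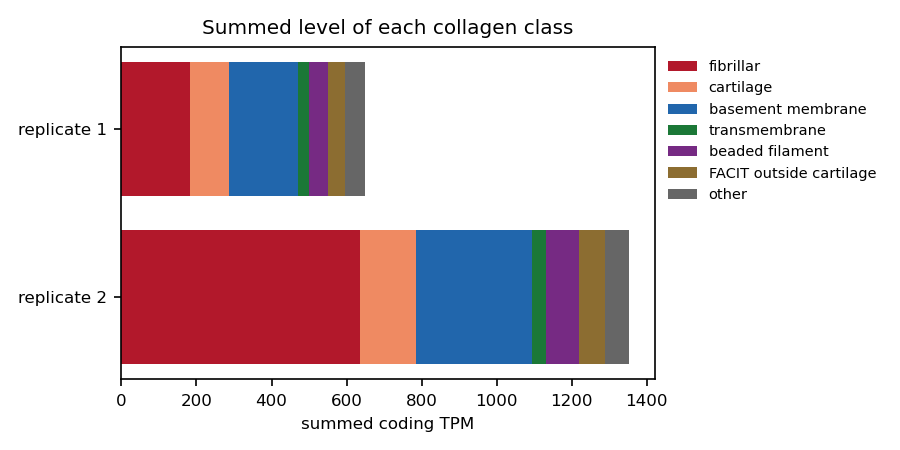
Summed coding TPM of each collagen class (horizontal axis), stacked in 1 bar per library. The bars reach 649 in replicate 1 and 1350 in replicate 2, and the fibrillar part grows from 183 to 635.

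The isolates were then compared gene by gene, to ask which collagen genes differed between them by more than counting error. Expected counts were scaled by TMM library sizes, and the split of each gene's counts was compared with that scaling (exact binomial test, two-sided, Benjamini-Hochberg adjustment over 17544 genes). Called genes had an adjusted p under 0.05 together with a difference of 2-fold or more. Ratios are of scaled counts, replicate 2 over replicate 1. With 1 library on each side, the test asks whether the reads of this pair differ and says nothing of a condition. Intervals and floors hold counting error alone, since reads amplified by PCR and not marked by molecular identifiers need not be separate molecules. In whole tissue, a lower share of a cell type and less RNA per cell cannot be told apart.

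All 44 genes passed the filter of a mean of 10 counts. Of these, 11 were higher in replicate 2, where 5.51% of all genes tested were called in that direction, and 1 was lower, where 4.94% were. Of the 11 higher genes, 6 were fibrillar, 3 were of the cartilage class, 1 was transmembrane and 1 was of the beaded filament class. The ratio was above 0 on the log2 scale in 36 of 44 members, with a median of 0.54, against 49.8% of all genes and a median of -0.0027. Among genes whose leading transcript has at least 3000 nt, 3.53% were called higher and the median was 0.09. After removal of a fitted trend of the ratio over transcript length and GC content, 8 members stayed higher, beside 6.02% of all genes, and Col11a2, Col27a1 and Col6a3 no longer reached 2-fold. Under library totals in place of TMM, which shift the median of all genes by 0.2 on the log2 scale, 13 members were higher, beside 7.47% of all genes, with Col22a1 and Col5a2 added. With a minimum mean of 100 counts, 37 members were tested and 9 of them were higher, beside 1.36% of genes. At 1.5-fold in place of 2-fold, 21 members were higher (9.86% of all genes) and 2 lower (9.95%), with Col3a1, Col5a2, Col11a1, Col4a1, Col4a2, Col6a5, Col12a1, Col14a1, Col22a1 and Col8a2 added to the higher genes and Col4a4 to the lower. The plot of ratios by gene sets these values side by side.

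**Figure D4:**
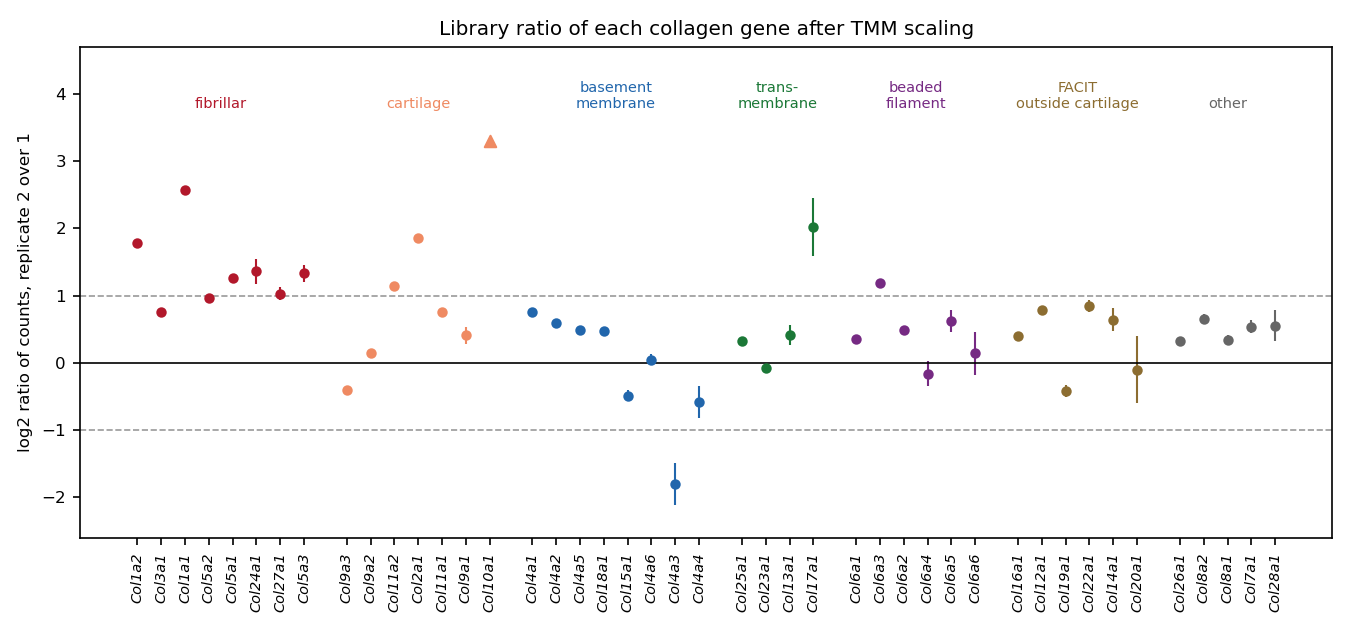
Log2 ratio of TMM-scaled counts, replicate 2 over replicate 1, for each collagen gene by class; bars are 1 counting standard error, dashed lines mark 2-fold, and the triangle gives Col10a1 at its lower bound. All 8 fibrillar genes lie above 0, with Col1a1 at 2.57, while 3 of 8 basement membrane genes lie below 0.

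All 8 fibrillar genes had ratios above 0, from 0.76 to 2.57 with a median of 1.30, and 6 of 8 were called higher in replicate 2. Col1a1 and Col1a2 encode the chains of type I collagen, the main fibre protein of bone, skin and the meninges. Col1a1 had 3194 counts (25.6 coding TPM) in replicate 1 and 23075 counts (171 coding TPM) in replicate 2. Scaled counts of Col1a1 were 5.95-fold higher in replicate 2 (95% counting interval 5.74 to 6.18), a ratio that ranked 11 from the highest among the 13681 genes of 100 mean counts or more. Col1a2 had 6759 counts (61.3 coding TPM) and 28383 counts (243 coding TPM), a 3.46-fold difference (3.37 to 3.55). The partner chains of type I collagen therefore differed in the same direction but not by the same factor, and their intervals do not overlap.

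Col3a1, the chain of type III collagen that forms thin fibres beside type I in soft tissue, stood at 66 coding TPM in replicate 1 and 143 in replicate 2. Its scaled counts differed 1.70-fold (1.65 to 1.74), which is below the 2-fold threshold. In replicate 1 Col3a1 was the highest fibrillar gene, and in replicate 2 it was below both Col1a2 and Col1a1. Of the type V chains, which start and thin the fibrils of type I, Col5a1 held 8.64 and 22.7 coding TPM and was called higher at 2.42-fold (2.28 to 2.56). Col5a3 held 1.18 and 3.5 coding TPM and was called at 2.52-fold (2.10 to 3.02). Col5a2 held 16.3 and 35.6 coding TPM, and its 1.95-fold difference (1.86 to 2.05) lay just under the threshold. The fibrillar genes of low level followed: Col27a1 had 2.14 and 5.13 coding TPM and was called at 2.05-fold (1.78 to 2.35). Col24a1 had 81 and 254 counts and was called at 2.57-fold (2.01 to 3.30). The coding TPM of Col24a1, 2.14 and 11.2, rests mostly on a transcript of 330 nt, Col24a1-203, which took 3 and 13 counts but 76.2 and 77.9% of the gene's TPM. Counting transcripts of at least 1000 nt, Col24a1 held 0.517 and 2.5 coding TPM.

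In the cartilage class the genes called higher in replicate 2 were Col2a1, Col11a2 and Col10a1. Col2a1, the main collagen of cartilage, which is also made in the neural tube and eye of embryos, had 650 counts (6.72 coding TPM) in replicate 1 and 2864 counts (27.1 coding TPM) in replicate 2. It was 3.63-fold higher in replicate 2 (3.33 to 3.95, adjusted p = 3.01e-241 by the exact binomial test). Col11a2, a type XI chain of the fibril core, held 9.45 and 28.7 coding TPM and was called at 2.20-fold (2.05 to 2.37), whereas its partner Col11a1 held 11.5 and 21.3 and differed 1.69-fold (1.59 to 1.80). Of the type IX genes, whose product coats the fibril, none was called, where 5.51% of all genes were called higher and 4.94% lower. Col9a3 was the highest gene of the class at 46.5 and 40.8 coding TPM, with a log2 ratio of -0.41 (SE 0.04). Col9a2 held 27.2 and 28.6 coding TPM, and Col9a1 held 2.95 and 4.04. In replicate 1 Col9a3 and Col9a2 were thus each above Col2a1. Counting transcripts of at least 1000 nt, Col9a2 held 16.2 and 21.3 coding TPM and Col2a1 6.2 and 25.6.

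Col10a1, a network collagen made by hypertrophic chondrocytes of growing bone, had 0 counts in replicate 1, where a count of 0 allows up to 3, and 36 counts (0.545 coding TPM) in replicate 2. Against that floor it was at least 9.89-fold higher in replicate 2, with an adjusted p of 3.19e-09 by the exact binomial test. The gene (chromosome 10, 34389981 to 34397085, mm10) lies wholly inside Nt5dc1 on the opposite strand, with 7105 bp shared. The libraries are stranded, but the use of strand in the authors' counting is not given in the sources used here. The median log2 ratio of the class was 0.76, with 6 of 7 ratios above 0, and Col10a1 at its bound leaves that median as it is.

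The basement membrane class was abundant in both isolates. None of its 8 genes was called higher at 2-fold, where 5.51% of all genes were. For so few genes this is near that share. Col4a1 and Col4a2 encode the chains of the type IV network that nearly all basement membranes share. Col4a1 held 83.1 coding TPM in replicate 1 and 158 in replicate 2, and its counts differed 1.69-fold (1.65 to 1.72). Col4a2 held 55.2 and 92.1 coding TPM and differed 1.5-fold (1.46 to 1.54). Neither reached 2-fold, and both ratios were below those of the type I genes Col1a1 and Col1a2. The ratio of Col4a1 was close to that of the fibrillar gene Col3a1, at 1.70-fold. At the 1.5-fold threshold Col4a1 and Col4a2 were called higher. Col4a1 and Col4a2 lie head to head on chromosome 8, and their annotated 5′ ends overlap by 22 bp. Col4a5 and Col4a6, X-linked chains of the same network, held 18.3 and 25.4 and 3.77 and 4.36 coding TPM.

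Col18a1, whose released end fragment is endostatin, held 15.2 and 21.8 coding TPM with a 1.39-fold difference (1.30 to 1.48). Col15a1, its close relative of vessel and muscle basement membranes, held 6.06 and 5.99 coding TPM with a log2 ratio of -0.49 (SE 0.08). In replicate 2 a transcript of 705 nt, Col15a1-208, held 18.1% of the gene's TPM on 11 counts. Counting transcripts of at least 1000 nt, Col15a1 held 6.06 and 4.86 coding TPM. Col4a3 and Col4a4, the chains of kidney and lung basement membranes, were below 1 coding TPM in both libraries. Col4a3 was the only collagen gene called lower in replicate 2, with 84 counts in replicate 1 and 29 in replicate 2, 3.48-fold higher in replicate 1 (adjusted p = 1.99e-09 by the exact binomial test). Its coding TPM was 0.665 and 0.545 with all transcripts, and 0.443 and 0.136 with transcripts of at least 1000 nt. It is not tested under a minimum of 100 counts, where no member was called lower. Col4a4 had 78 and 63 counts. The class median log2 ratio was 0.26, with 5 of 8 ratios above 0.

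The transmembrane class had a low sum over its 4 genes, and 3 of them lay within 1.5-fold between the isolates by scaled counts. Col25a1, whose product is found in amyloid plaques and which neurons express, led the class at 17.1 coding TPM in replicate 1 and 22.4 in replicate 2, with a 1.25-fold difference (1.18 to 1.33). Col23a1 held 11.5 and 12.1 coding TPM, with a log2 ratio of -0.08 (SE 0.05), and Col13a1, a collagen of the neuromuscular junction among other sites, held 2.29 and 3.54. Scaled counts of both leading genes of the class thus differed by 1.25-fold or less, and summed scaled counts differed 1.14-fold for the class and 2.97-fold for the fibrillar class. Col17a1, the hemidesmosome collagen of skin, had 13 counts (0.148 coding TPM) and 66 counts (0.545 coding TPM). It was called higher at 4.06-fold, with a wide counting interval of 2.26 to 7.29 (adjusted p = 3.13e-07 by the exact binomial test). Of 5 skin keratins, Krt5 and Krt15 had 0 counts in both libraries, Krt14 had 3 and 5, and the tested Krt1 and Krt10 had log2 ratios of -0.23 and -0.50 and were not called.

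Among the type VI genes, which form beaded filaments around cells, Col6a1 held 21.6 and 30.6 coding TPM, Col6a2 held 13.1 and 20.7, and Col6a3 held 11.7 and 32.8. Only Col6a3 was called, at 2.28-fold higher in replicate 2 (2.14 to 2.43). The order of these chains by level rests on a short transcript: Col6a3-207, of 476 nt, held 37 and 33.7% of the TPM of Col6a3 on 22 and 55 counts. Counting transcripts of at least 1000 nt, Col6a3 held 7.31 and 19.9 coding TPM and was the lowest of the 3 in both libraries. Col6a4 held 1.92 and 0.726 coding TPM from nearly equal counts of 112 and 122. Col6a5 held 1.03 and 1.09 coding TPM and Col6a6 0.222 and 0.318. Their counts in replicate 2, 238.28 and 46.72, are not whole and have a deposited posterior SD of 0.86 counts each. Scaled counts of Col6a5 differed 1.54-fold. Counting transcripts of at least 1000 nt, Col6a5 held 0.591 and 1.09 coding TPM, below the detection level of 1 in replicate 1.

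Of the 6 FACIT genes outside cartilage, none was called, where 5.51% of all genes were called higher and 4.94% lower. Col16a1 held 21 coding TPM in replicate 1 and 28.5 in replicate 2, and Col12a1, a fibril-surface collagen of dense tissue, held 12 and 28.6. Counting transcripts of at least 1000 nt, Col16a1 held 12.3 and 18.2, and Col12a1 kept its values. By scaled counts, however, Col12a1 differed only 1.72-fold (1.63 to 1.82). Its TPM depends on Col12a1-204, of 1784 nt, which held 25.1 and 46.6% of the gene's TPM on 102 and 486 counts. That transcript was the leading one in replicate 2 but not in replicate 1. Col19a1, which interneurons of hippocampus and cortex are known to express, held 5.91 and 5.08 coding TPM with a log2 ratio of -0.42 (SE 0.09). The remaining Col22a1, Col14a1 and Col20a1 had mean levels of 5.26, 1.64 and 0.202 coding TPM. Of the 5 other genes, none was called either, and for so few genes this is near the same shares. Col26a1 led them at 38.9 and 42 coding TPM, which made it the highest collagen gene outside the fibrillar, cartilage and basement membrane classes. The short-chain type VIII genes, found in the membrane of the corneal endothelium and in vessels, followed with Col8a2 at 6.28 and 11.1 and Col8a1 at 5.1 and 7.17 coding TPM. Col7a1, of anchoring fibrils, held 2.14 and 2.54, and Col28a1 held 0.738 and 1.18.

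Chains that assemble together, and Col3a1 with Col1a1, whose separate molecules lie in the same fibres, were compared within each library as ratios of TPM, since these do not depend on library scaling. Of 12 pairs, 9 had the same chain higher in both libraries, and in 7 the ranges given by the deposited TPM bounds overlapped between the libraries. The type I helix holds more of the Col1a1 chain than of Col1a2, yet Col1a1 was at 0.418 of Col1a2 by TPM in replicate 1 (0.397 to 0.471) and 0.701 in replicate 2 (0.684 to 0.727). Col1a2 transcripts were the more abundant in both libraries, by a smaller margin in replicate 2. Col4a1 stood at 1.5 and 1.72 of Col4a2, close in both libraries although the ranges of 1.43 to 1.57 and 1.65 to 1.77 do not overlap. Col6a1 stood at 1.64 and 1.48 of Col6a2, and Col4a5 at 4.86 and 5.82 of Col4a6, with overlapping ranges.

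The type V, VIII and IX pairs also kept their order and overlapped. Col5a1 stood at 0.529 and 0.638 of Col5a2, Col8a1 at 0.812 and 0.645 of Col8a2, and Col9a3 at 1.71 and 1.43 of Col9a2. Col9a1 was far below its partner at 0.109 and 0.141 of Col9a2. Col4a3 stood at 1.80 and 2.00 of Col4a4, within wide ranges of 0.851 to 6.46 and 0.683 to 7.03 that include 1. Counting transcripts of at least 1000 nt, that ratio was 1.20 and 0.50, while Col9a3 over Col9a2 was 2.79 and 1.79. The order differed between the isolates for Col3a1 over Col1a1, at 2.58 in replicate 1 and 0.838 in replicate 2, and it did so with transcripts of at least 1000 nt as well, at 2.49 and 0.699. For the remaining 2 pairs the order by TPM depended on short transcripts. Col6a3 was at 0.541 and 1.07 of Col6a1 with all transcripts and at 0.339 and 0.649 with those of at least 1000 nt. Col11a1 was at 1.22 and 0.742 of Col11a2 with all transcripts and at 1.44 and 1.08 with those of at least 1000 nt, since Col11a2-207, a retained intron of 836 nt, held 31.4% of the TPM of Col11a2 in replicate 2.

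Transcript tables were read for the 36 members at 1 coding TPM or more in both libraries. The transcript with the highest share of the gene's TPM was the same in both libraries for 29 members. For 35 members the leading transcript is coding in the annotation, with Col19a1 as the exception, and for 25 its share exceeded 50% in replicate 1 and in replicate 2. The main fibrillar and network genes were nearly single-transcript: Col1a1-201 held 100 and 99.3% of Col1a1, Col4a1-201 held 99.5 and 98.0% of Col4a1, and Col4a2-201 held 99.7 and 99.8% of Col4a2. Col3a1 was the exception among them, since a transcript of 737 nt, Col3a1-205, held 0 and 17.0% of its TPM. With transcripts of at least 1000 nt, Col3a1 held 63.9 and 118 coding TPM.

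Some genes with known alternative forms differed between the isolates. Col2a1-202 held 51.6% of the TPM of Col2a1 in replicate 1 and 77.4% in replicate 2, and the longer Col2a1-201 held 41.1 and 17.0%. In counts, Col2a1-201 went from 294 to 536 and Col2a1-202 from 351 to 2316, so the higher level of Col2a1 in replicate 2 came mostly from the shorter form. Col9a1-202 held 90 and 48.9% of Col9a1, on few counts, 162 and 132, and the longer Col9a1-201 held 9.97 and 47.3%. Col18a1-202 held 88.3 and 88.0% of Col18a1 and Col25a1-202 held 55.6 and 61.8% of Col25a1. Col25a1-201, whose coding sequence is printed above, held 10.8 and 1.04%. Col18a1 and Col25a1 kept their leading form, and so did Col2a1 and Col9a1, whose shares moved. No test was made of these shares, which depend on how the authors' quantification divided reads among transcripts.

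Genes that build, bind and break down collagen were then read beside the members. The 32 processing genes, which hydroxylate, fold, trim and cross-link the chains, summed to 1110 coding TPM in replicate 1 and 1220 in replicate 2, and their median log2 ratio was 0.32. The 3 highest were Ppib, a prolyl isomerase of the endoplasmic reticulum (328 and 286 coding TPM), P4hb, a subunit of prolyl 4-hydroxylase with wider roles in protein folding (157 and 167), and Mia3, which loads procollagen for export (120 and 126). Of the 32, 6 were called higher and none lower, where 5.51 and 4.94% of all genes were. They were the cross-linking oxidases Lox (7.75 and 20.8 coding TPM, 2.33-fold by counts), Loxl2 (4.14 and 9.31, 2.01-fold) and Loxl4 (0.443 and 1.5, 2.44-fold), the prolyl hydroxylases P4ha3 (2.95 and 7.04, 2.13-fold) and P3h2 (0.591 and 1.41, 2.66-fold), and the procollagen peptidase Adamts14 (0.517 and 0.999, 2.15-fold). Serpinh1, the collagen chaperone, held 91.8 and 123 coding TPM and differed 1.20-fold.

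Of 11 collagen receptors, 10 were tested and none was called in either direction, with a median log2 ratio of 0.39. Of all genes, 5.51% were called higher and 4.94% lower, so no call among 10 genes is near those shares. Itgb1, the shared beta subunit of the collagen-binding integrins, held 54.9 and 79.5 coding TPM. Adgrg1, the receptor for type III collagen at the pial surface, held 49.8 and 73.8, and the discoidin receptor Ddr1 held 51.4 and 57.5. Gp6, the collagen receptor of platelets, had 0 counts in both libraries, which allows up to 3 in each. All 12 collagen-binding matrix genes had ratios above 0, with a median of 0.60, and 2 were called higher, beside 5.51% of all genes. They were Lum, a small proteoglycan (5.32 and 13.6 coding TPM, 2.29-fold by counts), and Thbs2, a matricellular protein (4.06 and 9.9, 2.18-fold). The highest of the 12 were Sparc at 155 and 224, Fn1 at 48.4 and 68.9 and Dcn at 39.9 and 56.7 coding TPM, each under 1.5-fold by counts.

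The 6 collagen-degrading enzymes had the highest median log2 ratio of the 4 partner lists, 1.20, and 4 were called higher, beside 5.51% of all genes. Mmp9, the gelatinase of osteoclasts and neutrophils, had 325 and 912 counts, a 2.31-fold difference, and Ctsk, the collagen-cleaving cathepsin of osteoclasts, had 171 and 474, a 2.28-fold difference. Mmp13, the collagenase of hypertrophic cartilage and osteoblasts, had 4 counts in replicate 1 and 176 in replicate 2. Mmp8, the neutrophil collagenase, had 0 and 44 counts, at least 12.1-fold higher against the floor of 3 counts. Mmp14, the highest of the list at 23.6 and 36.5 coding TPM, and Mmp2, at 11.2 and 18.9, were not called.

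Markers of cell types that a dissected forebrain could hold, collagens left out, are given as measured values, and their part in the collagen ratios was not tested. Of 7 osteoblast markers, 6 were tested and 3 were called higher, beside 5.51% of all genes. Ibsp, a bone sialoprotein, had 101 and 842 counts (6.84-fold), Phex 61 and 392 (5.26-fold) and Runx2 52 and 198 (3.12-fold). Not called were Alpl (446 and 583 counts, 1.08-fold), Dmp1 (24 and 30, 1.03-fold) and Sp7 (58 and 136, 1.92-fold). Alpl alone held 9.82 coding TPM in replicate 1 and 10.8 in replicate 2. Bglap, the osteocalcin of mature osteoblasts, had 2 and 3 counts. From this list 1 further marker was left out after its values were seen, so the sum and median describe the genes kept. The summed level of these 7 genes was 15.7 coding TPM in replicate 1 and 42.5 in replicate 2, and their median log2 ratio was 1.29. Of 8 chondrocyte markers, 6 were tested and 3 were called higher, beside 5.51% of all genes. Acan had 199 and 608 counts, Matn3 8 and 36, and Comp 1 and 40. The other tested markers were not called: Hapln1 (153 and 264 counts, 1.42-fold), Sox9 (log2 ratio -0.10) and Matn1 (14 and 9 counts, log2 ratio -0.89). Ratios were thus above 0 for 4 of the 6 tested. The summed level of these 8 genes was low, 8.86 and 13.3 coding TPM. Snorc had 0 counts in both libraries and Chad had 0 and 1.

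Of 10 meningeal fibroblast markers, 1 was called higher, Lum, beside 5.51% of all genes. Lum and Dcn also stand in the list of collagen-binding matrix genes. The summed level of the meningeal list was 312 and 505 coding TPM, with 8 of 10 ratios above 0 and a median of 0.38. None of 7 endothelial and 6 pericyte markers was called, with medians of 0.32 and 0.26 and sums of 232 and 301 and of 100 and 137 coding TPM. Choroid plexus markers summed to 746 and 481 coding TPM with a median log2 ratio of -0.26 and no call. Of 5 skeletal muscle markers, 4 were called lower in replicate 2, beside 4.94% of all genes, with a median of -1.54 and sums of 26.8 and 13.5. Most of these calls rest on few counts: Mylpf had 18 and 6, Myh3 70 and 29, Ckm 118 and 28, and Acta1 494 and 285. Tnnt3, with 20 and 26 counts, was not called. Telencephalic and neuronal markers had medians of -0.13 and -0.28 with no call. Ratios of the telencephalic genes ran from -0.84 for Emx1 to 0.52 for Dlx1. For lists of so few genes, no call is near the shares of all genes, 5.51% higher and 4.94% lower. The plot of list ratios shows the degrading enzymes and the osteoblast and chondrocyte markers reaching farthest to the right.

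**Figure D5:**
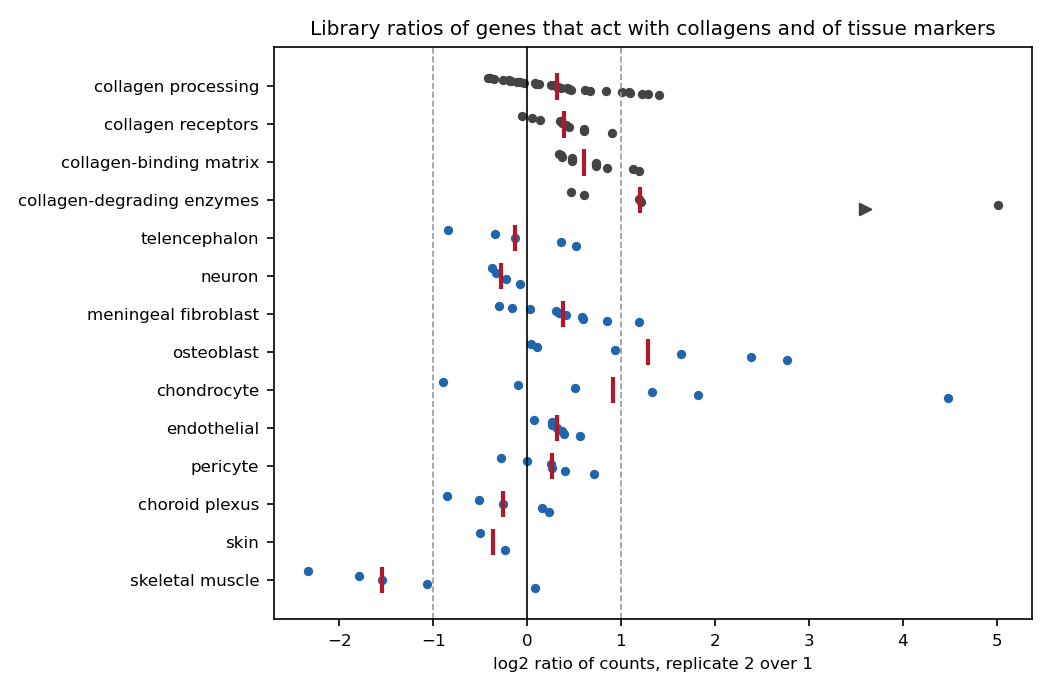
Log2 ratio of TMM-scaled counts, replicate 2 over replicate 1, for each tested gene of 4 lists of genes that act with collagens (grey) and 10 lists of tissue markers (blue); red bars are list medians, dashed lines mark 2-fold, and the triangle gives Mmp8 at its lower bound. Medians run from -1.54 for skeletal muscle to 1.20 for collagen-degrading enzymes and 1.29 for the osteoblast markers, and the neuronal genes lie between -0.37 and -0.07.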

How the data were processed

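Members and gene lists were chosen with earlier results of these data known. Per the labels, the authors quantified each library on mm10 with GENCODE M4. Which aligner and quantifier they ran is not given in the sources used here. The deposited expected counts were rounded for tests, and deposited posterior mean counts served as an alternative. Deposited TPM was rescaled to a coding sum of 1000000 by factors of 7.38 and 4.54. Deposited FPKM was not used for results. Deposited isoform percent values give transcript shares, per the file headers. GENCODE M21, also mm10, matched 42462 of 43346 genes (98%) and gave symbols, positions and coding sequences; spike-ins and tRNA entries were left out.

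TMM sizes came from edgeR 4.0.16 (R 4.3.3), whose dispersion tests need replicates per group; DESeq2 1.42.0 gave alternative size factors. Ratios had 0.5 added to each count, and SEs cover counting only. An exact binomial test was run on the 17544 genes of 10 mean counts or more (Python 3.11.15, scipy 1.17.1). Trends over length and GC content were splines (5 degrees of freedom). The test was tried on simulated data with 200 genes changed. Named were, per class, the 3 highest members, called members, chain-pair members and those with 0 counts; and, per list of genes acting with collagens, the 3 highest and called members. Krt, Sox9 and other markers, Serpinh1, and the members given to complete each class, were named after their values were seen. For 42 of 44 members the deposited posterior SD of the count was 0 in both libraries. Among the members, 15 overlap another annotated gene on the same strand and 18 on the opposite strand. The osteoblast list had 1 further marker, which was taken out after its values were seen and is not reported here.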

Additional observations from a re-analysis of the deposited data

How the results depend on the processing

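Of the alternative values of the results on calls, medians, class sums, class shares, detection, chain pairs and leading transcripts, 79 stayed within the limits set for them, 8 moved and none reversed. For class sums and shares the limit was the SD over the 2 libraries, so leaving out either library could not move a value. Moving genes between classes left the sums and shares of untouched classes as they were. Such values are among the 79 by construction and say nothing of stability. At a 1.5-fold threshold 21 members were higher and 2 lower in replicate 2, against 11 and 1 at 2-fold. With at least 100 counts, 9 were higher and 0 lower, since Col4a3, Col10a1 and Col17a1 are not tested there. The median log2 ratio was 0.74 with library totals and 0.36 with the length and GC trend removed; the cause was not tested. Treating Col2a1, Col11a1 and Col11a2 as fibrillar gave a cartilage sum of 75.3 coding TPM and share of 8.64%, by construction. With deposited TPM, 21 members reached 1 TPM in both libraries against 36 with coding TPM. Transcripts of at least 1000 nt, an alternative chosen after seeing the data and run for class sums, class shares, detection, chain pairs and leading transcripts, moved none of their summary values beyond the limits, with 10 pairs on the same side of 1 in both libraries against 9. The pairs differ, however: Col6a3 over Col6a1 and Col11a1 over Col11a2 joined them and Col4a3 over Col4a4 left. Of the alternative values of single chain pairs, 44 stayed and 4 moved: mean Col4a3 over Col4a4 was 2.69 by posterior mean TPM and 0.85 with transcripts of at least 1000 nt against 1.90, and with the latter Col9a1 over Col9a2 was 0.182 against 0.125 and Col9a3 over Col9a2 2.29 against 1.57.

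Without replicate 1 or 2, class sums ranged from 183 to 635 coding TPM (fibrillar), 183 to 308 (basement membrane), 104 to 151 (cartilage) and 31 to 38.6 (transmembrane), shares from 28.3 to 46.9, 22.8 to 28.1, 11.2 to 16.1 and 2.85 to 4.78%, and detection was 37 either way. The library ratio needs both libraries, so no replicate could be left out of it. No paired analysis was possible because there is 1 group of 2 libraries. Counts below about 100, as for Col10a1, Col17a1, Col4a3, Col4a4 and Col20a1, limit those ratios.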
